A study of Mus musculus with 32 samples.

Results

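Collagen genes were followed in mouse uteri exposed to diethylstilbestrol (DES), a synthetic estrogen, and in uteri with a conditional deletion of Esr1, Foxa2 or Foxo1. A gene counted as a collagen gene when a probe carried a single gene symbol of the form Col, number, a, number. That rule took 42 of the 19087 genes named in this way, on 101 probes: 11 fibrillar, 9 basement membrane and 22 other collagens. A filter on dim probes left 38 of the 42 for testing, 11 fibrillar, 9 basement membrane and 18 other. Col10a1, Col12a1, Col19a1 and Col28a1 did not pass it, with probes above the floor on 0 to 3 of the 32 arrays. The RNA came from whole uteri of CD-1 females at postnatal day 5 and was hybridised, with Cy3 as the only dye, to 32 Agilent arrays, 1 per sample and 4 biological replicates in each of 8 groups. Females with a conditional knockout (cKO) of Esr1 and their wild-type counterparts had received either vehicle control or DES. In the Foxa2 line and in the Foxo1 line, wild-type and cKO females had all received DES, so no vehicle group belongs to either line. The deletions are described as conditional and uterine. Neither the Cre driver and the cells it acts in, nor the DES dose and days, litters or slides are given in the sources used here.

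Collagens are extracellular proteins built from chains that wind into triple helices, and each gene encodes 1 chain. Fibrillar collagens such as types I, III and V form the load-bearing fibres of the stroma. Type IV collagen forms the sheet under epithelia, around muscle cells and around vessels, and its chains combine in fixed sets: chains of Col4a1 with Col4a2, of Col4a3 with Col4a4 and Col4a5, and of Col4a5 with Col4a6. The genes of each of the pairs Col4a1 and Col4a2, Col4a3 and Col4a4, and Col4a5 and Col4a6 lie next to each other and are transcribed in opposite directions. Esr1 encodes estrogen receptor alpha, through which DES acts on the uterus, Foxa2 a forkhead factor of uterine glands, and Foxo1 a forkhead factor known from the decidual response.

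The sequences around the gene starts of 5 collagen genes on which the results turn are given here: the neighbours Col4a5 and Col4a6, which fell together with DES, Col13a1, which had the largest fall, and Col6a1 and Col17a1, which rose. Each run holds 300 bases, from upstream of the start to shortly after it, 5′ to 3′ on the gene's strand, from RefSeq on GRCm38.p6. Capitals mark matches, on either strand, to the palindromic estrogen response element (GGTCA, any 3 bases, TGACC), its core GGTCA, the AP-1 motif TGANTCA or the forkhead motif TGTTTAC. The core is contained in the full element.
Col4a5, chrX:141475169-141475468, plus strand: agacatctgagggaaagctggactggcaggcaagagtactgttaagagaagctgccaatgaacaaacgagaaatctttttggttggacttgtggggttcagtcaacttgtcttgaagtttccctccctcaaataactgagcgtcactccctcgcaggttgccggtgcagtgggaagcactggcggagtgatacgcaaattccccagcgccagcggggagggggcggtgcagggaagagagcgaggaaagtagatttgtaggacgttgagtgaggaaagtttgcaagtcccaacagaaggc
Col4a6, chrX:141474027-141474326, minus strand: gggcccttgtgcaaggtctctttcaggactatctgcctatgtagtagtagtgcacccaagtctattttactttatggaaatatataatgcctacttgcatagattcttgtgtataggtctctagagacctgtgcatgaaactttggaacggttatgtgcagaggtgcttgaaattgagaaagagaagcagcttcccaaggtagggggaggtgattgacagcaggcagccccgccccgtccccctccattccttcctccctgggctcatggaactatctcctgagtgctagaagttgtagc
Col13a1, chr10:61979059-61979358, minus strand: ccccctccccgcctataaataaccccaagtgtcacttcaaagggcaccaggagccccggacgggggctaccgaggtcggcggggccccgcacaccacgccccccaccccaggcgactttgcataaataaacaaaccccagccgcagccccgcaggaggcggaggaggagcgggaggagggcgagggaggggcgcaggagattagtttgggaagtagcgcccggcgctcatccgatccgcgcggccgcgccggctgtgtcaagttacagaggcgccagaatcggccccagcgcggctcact
Col6a1, chr10:76725995-76726294, minus strand: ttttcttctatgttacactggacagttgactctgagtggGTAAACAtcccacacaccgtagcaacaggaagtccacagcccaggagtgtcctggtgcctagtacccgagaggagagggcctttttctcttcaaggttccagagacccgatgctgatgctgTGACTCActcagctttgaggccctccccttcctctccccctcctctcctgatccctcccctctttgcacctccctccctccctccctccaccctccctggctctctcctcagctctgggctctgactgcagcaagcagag
Col17a1, chr19:47691993-47692292, minus strand: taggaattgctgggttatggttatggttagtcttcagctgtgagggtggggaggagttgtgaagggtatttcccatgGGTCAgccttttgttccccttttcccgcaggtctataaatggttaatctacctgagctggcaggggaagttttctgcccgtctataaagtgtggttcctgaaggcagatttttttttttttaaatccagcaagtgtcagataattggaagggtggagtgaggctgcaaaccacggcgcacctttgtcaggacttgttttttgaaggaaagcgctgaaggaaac

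The annotated starts of Col4a5 and Col4a6 lie 1343 bases apart. Their windows held no match to any of these motifs, and neither did that of Col13a1. Col6a1 had 1 AP-1 and 1 forkhead match, and Col17a1 had 1 match to the core GGTCA. Windows were listed for 33 of the 42 collagen genes, 36 windows in all. No collagen window held the full estrogen response element, which was present in 0.07% of all 32851 windows. The core GGTCA stood in 36.1% of collagen windows and in 40.5% of all windows. The AP-1 motif stood in 2.78% of collagen windows against 7.81% of all, and the forkhead motif in 2.78% against 3.65%. These matches describe the letters of the windows and are not binding sites.

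Levels are log2 intensities relative to the 75th percentile of the array. Levels of different genes come from different probes and are not compared with each other. The deposited 75th percentiles ran from 697 to 1787 in 30 of the 32 arrays. They were 551 in replicate 4 of the vehicle Esr1 wild-type group and 9024 in replicate 1 of the DES Foxa2 wild-type group. These arrays also stood apart in many collagen levels, and the first of them had a level of -2.35 for Xist, the X-inactivation RNA of female cells, where the other 31 arrays lay between 1.62 and 4.02. Counts of called collagen genes that change without both arrays are given in both ways. Within the groups given DES, the deleted gene was lower in the cKO by 1.96 for Esr1 (adjusted p = 0.00039), 2.99 for Foxa2 (adjusted p = 4.5e-05) and 2.64 for Foxo1 (adjusted p = 1e-09) on the log2 scale, and its groups did not overlap in any of the 3 lines. Under vehicle, Esr1 levels were 2.43 to 2.82 in the cKO and 2.65 to 4.43 in wild type, a log2 difference of -0.74 that did not pass the test (adjusted p = 0.33).

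DES changed most collagen genes of the wild-type uterus, in both directions. The basement membrane genes Col4a5, Col4a6, Col7a1 and Col18a1 fell, while Col4a3 and Col4a4 rose. Among the other collagens, Col13a1 and Col26a1 fell most and Col6a1 rose most. The abundant fibrillar genes Col1a1, Col1a2 and Col3a1 did not pass the test. In total 25 of 38 collagen genes passed at an adjusted p under 0.05 (limma over all genes, Benjamini-Hochberg), 13 higher and 12 lower, and 15 of the 25 changed at least 2-fold. Of all 17145 genes tested, 51.8% passed, 21.5% higher and 30.3% lower, and 31.2% passed and changed at least 2-fold. Without the arrays that stood apart 26 collagen genes passed, against 63.2% of all genes. The 4 arrays given DES and the 4 given vehicle did not overlap for 24 of the 38 collagen genes, against 50.5% of all genes. In bulk tissue, fewer cells of a type and less RNA per cell cannot be told apart. The median log2 change was 0.17 over the collagen genes and -0.16 over all genes.

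The classes differed in the size of their changes. Of 11 fibrillar genes, 3 rose and 1 fell, none by as much as 2-fold, with changes from -0.76 to 0.83 and a median of 0.26. Of 9 basement membrane genes, 3 rose and 4 fell, with changes from -3.19 to 2.93 and a median of 0.29. Of 18 other collagens, 7 rose and 7 fell, with changes from -4.24 to 1.72 and a median of -0.06. These changes are those of the brightest kept probe of each gene. Another probe of the fibrillar gene Col3a1 fell by more than 2-fold, as its probe range below shows. No test of the difference between classes was made.

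**Figure D1:**
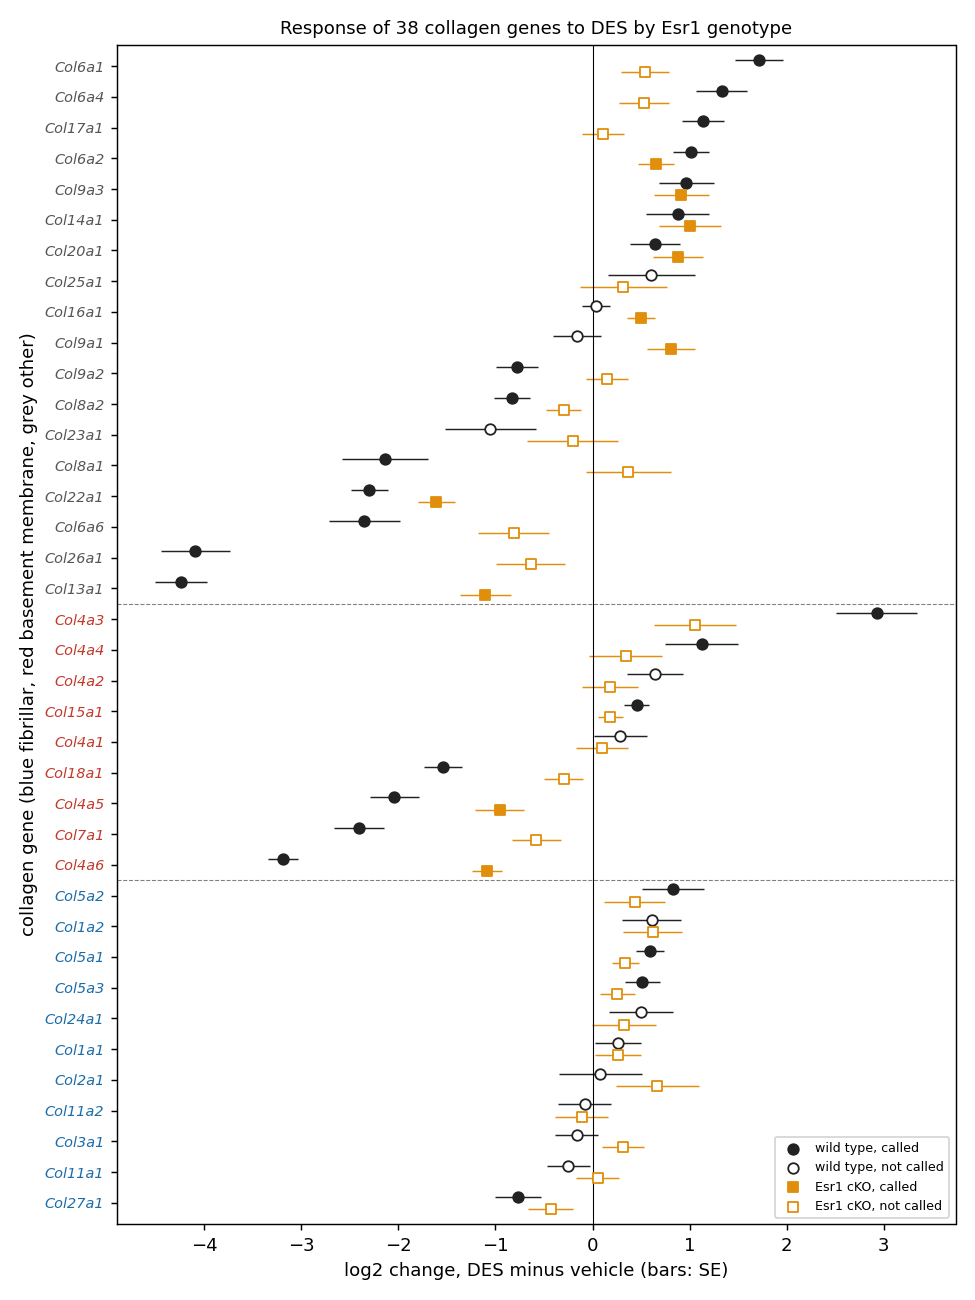
Log2 change with DES (x axis, DES minus vehicle, bars show the SE) for the 38 tested collagen genes (y axis), in Esr1 wild type (circles) and Esr1 cKO (squares), 4 arrays per group; filled symbols passed an adjusted p under 0.05. The wild-type changes run from -4.24 for Col13a1 to 2.93 for Col4a3, and the fibrillar genes at the bottom lie between -0.76 and 0.83.

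The type IV pairs moved in different ways. Col4a6, whose chain joins that of Col4a5 in basement membranes of epithelium and smooth muscle, had levels of 2.90, 2.89, 2.86 and 2.77 in wild-type uteri given vehicle and of -0.57, -0.34, -0.04 and -0.36 in those given DES. All 4 DES arrays lay below all vehicle arrays, a 9.10-fold fall (log2 -3.19, SE 0.16, adjusted p = 1.5e-15). Its 3 probes all fell, by -1.79 to -3.19. Col4a5 had vehicle levels of 0.70, 0.72, 0.75 and -0.75 and DES levels of -1.73, -1.55, -1.76 and -1.69. These groups did not overlap either, although vehicle replicate 4 lay well below the other 3 (log2 -2.04, SE 0.25, adjusted p = 1.5e-07).

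Col4a3 and Col4a4, chains known from the kidney glomerulus, moved the other way. Col4a3 was low under vehicle, at -4.50, -4.33, -4.26 and -7.53, and stood at -2.31, -2.02, -2.24 and -2.32 with DES. The log2 rise of 2.93 (SE 0.42, adjusted p = 1.5e-06) rested in size on vehicle replicate 4, and was 2.14 without the arrays that stood apart. Col4a4 had vehicle levels of -0.03, 0.14, 0.19 and -0.65 and DES levels of 1.09, 1.17, 1.03 and 0.87, without overlap (log2 1.13, SE 0.37, adjusted p = 0.013). Leaving out vehicle replicate 4 alone gave an adjusted p of 0.054 for Col4a4, and leaving out both arrays that stood apart gave a log2 change of 0.94 with an adjusted p of 8.2e-08.

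Col4a1 and Col4a2 encode the chains present in every basement membrane. Col4a1 had vehicle levels of 3.69, 3.97, 3.95 and 3.36 and DES levels of 4.03, 4.01, 4.02 and 4.06. The DES arrays lay just above the vehicle arrays, and the log2 difference of 0.29 (95% interval -0.27 to 0.84) did not pass the test. Its 3 probes ranged from -1.65 to 0.63, with 2 of them above 0. Col4a2 had vehicle levels of 3.52, 3.40, 3.41 and 1.56 and DES levels of 3.76, 3.64, 3.62 and 3.46. Those groups overlapped, with a log2 difference of 0.65 (95% interval 0.05 to 1.24, adjusted p = 0.063).

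**Figure D2:**
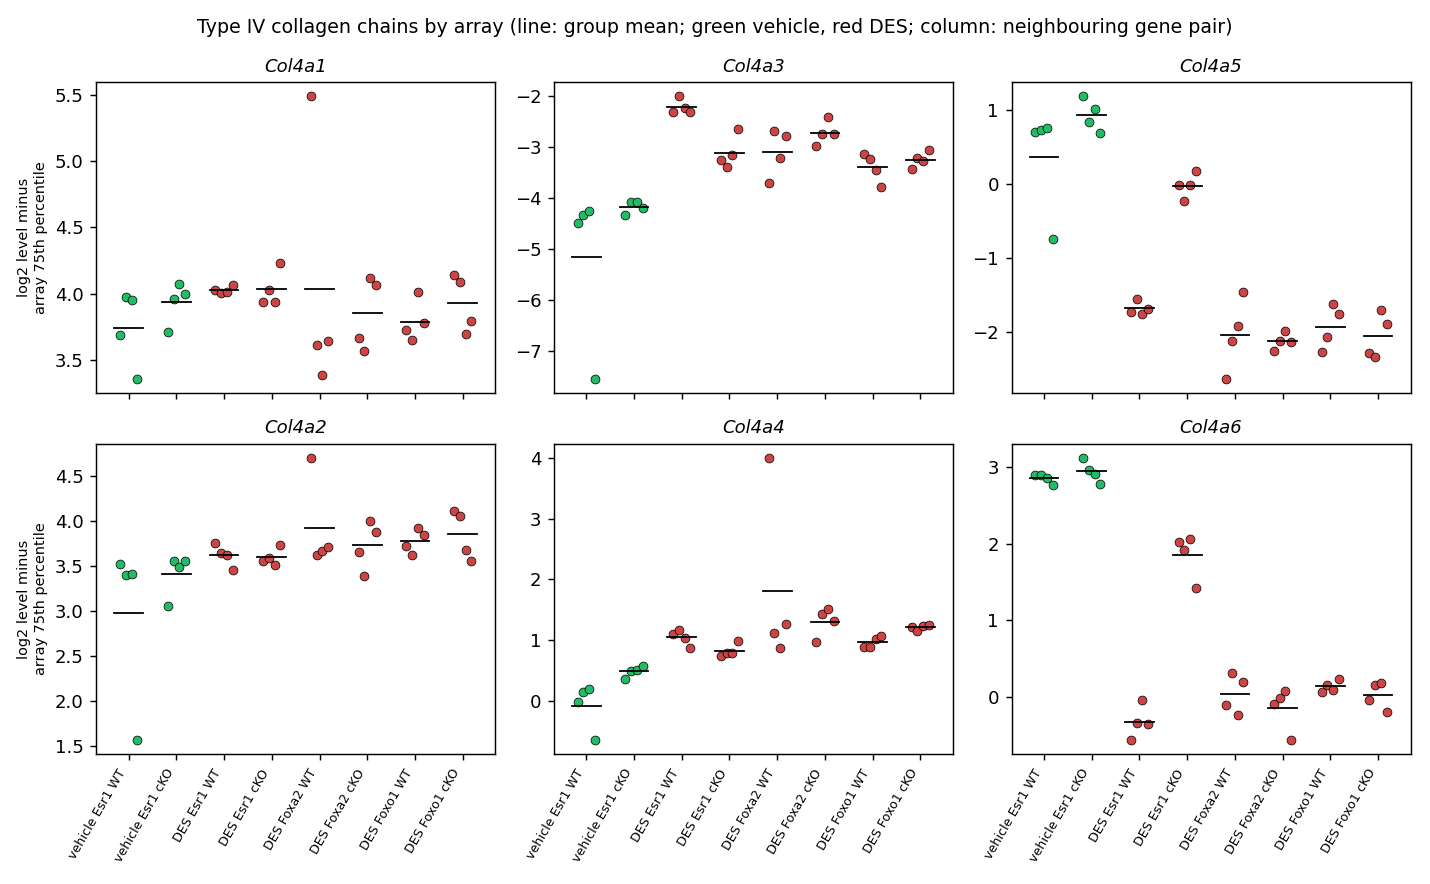
Levels of the 6 type IV chains (y axis, log2 intensity minus the array's 75th percentile) on every array of the 8 groups (x axis); lines show group means, green vehicle and red DES, and each column of panels holds a pair of neighbouring genes. Col4a5 and Col4a6 are low in all DES groups other than the Esr1 cKO, and the highest point of Col4a1, Col4a2 and Col4a4 is DES Foxa2 wild-type replicate 1, at 5.49, 4.70 and 4.00.

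The remaining basement membrane genes also split. Col7a1, which encodes the anchoring fibrils under stratified epithelium, had vehicle levels of 5.48, 5.26, 5.43 and 6.35 and DES levels of 3.17, 3.27, 3.18 and 3.27. The groups were far apart, a 5.30-fold fall (log2 -2.41, SE 0.25, adjusted p = 8.8e-09). Col18a1, the source of endostatin, fell from a range of 4.15 to 4.37 to a range of 2.60 to 3.00 (log2 -1.54, SE 0.20, adjusted p = 2.5e-07). Col15a1, its closest relative, rose by less, from levels of -0.55, -0.64, -0.82 and -0.52 to levels of -0.16, -0.30, 0.13 and -0.38. Its groups did not overlap (log2 0.46, SE 0.13, adjusted p = 0.0041).

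Among the fibrillar genes, the type V chains, which sit in the core of type I fibres and limit their width, were the ones that rose. Col5a1 had vehicle levels of 5.04, 5.08, 5.04 and 5.83 and DES levels of 5.91, 5.70, 5.90 and 5.87. Vehicle replicate 4 lay within the DES range and the other 3 below it (log2 0.60, SE 0.14, adjusted p = 0.00097). Col5a2 had vehicle levels of 2.86, 2.96, 2.91 and 1.78 and DES levels of 3.57, 3.35, 3.52 and 3.38, without overlap (log2 0.83, SE 0.32, adjusted p = 0.03). Its call was lost without vehicle replicate 4, and without DES replicate 1 or 3 (adjusted p up to 0.16), whereas without both arrays that stood apart the change was 0.55 with an adjusted p of 0.00034. Col5a3 rose by 0.51 (adjusted p = 0.02). Col5a1 and Col5a3 lost their calls when the mean of a gene's probes replaced its brightest probe, with adjusted p-values of 0.10 and 0.15. Col27a1, a fibrillar chain known from cartilage, had vehicle levels of 0.34, 0.25, -0.26 and -0.43 and DES levels of -1.02, -0.75, -0.40 and -0.98. DES replicate 3 lay within the vehicle range and the other 3 below it (log2 -0.76, SE 0.24, adjusted p = 0.0081).

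The chains of types I and III, the main fibres of stroma, did not pass the test. Col1a1 had vehicle levels of 7.11, 6.81, 6.61 and 6.99 and DES levels of 7.11, 7.10, 7.24 and 7.12, with overlap and a log2 difference of 0.26 (95% interval -0.22 to 0.74, adjusted p = 0.37). Col1a2 had vehicle levels of 7.17, 7.12, 7.15 and 6.63 and DES levels of 7.66, 7.56, 7.61 and 7.68. The Col1a2 groups did not overlap, but its log2 difference of 0.61 (95% interval -0.01 to 1.22) did not pass over all arrays and passed without the arrays that stood apart (0.48, adjusted p = 0.018). Col3a1, which neighbours Col5a2 in the genome, had vehicle levels of 6.98, 6.69, 6.55 and 7.58 and DES levels of 6.68, 6.86, 6.78 and 6.84. Those overlapped (log2 -0.16, 95% interval -0.61 to 0.29, adjusted p = 0.56). With the mean of its 3 probes, which ranged from -1.64 to -0.02, the Col3a1 change was -0.61 with an adjusted p of 0.025.

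Col13a1, a transmembrane collagen of cell contacts, showed the largest change. Its vehicle levels of 1.63, 1.72, 1.94 and 1.94 stood against DES levels of -2.90, -2.64, -2.39 and -1.80. That is an 18.9-fold fall with a wide gap between the groups (log2 -4.24, SE 0.26, adjusted p = 2.7e-13). Col26a1, a secreted collagen known from testis and ovary, had vehicle levels of 5.34, 5.17, 5.21 and 5.19 and DES levels of 0.62, 0.65, 1.45 and 1.83. It fell 17.0-fold (log2 -4.09, SE 0.36, adjusted p = 2.3e-10), and its second probe fell by -5.36. Col17a1, the transmembrane collagen of hemidesmosomes, rose instead. Its vehicle levels were -2.02, -2.26, -2.49 and -1.75 and its DES levels -1.03, -0.91, -1.28 and -0.76, without overlap (log2 1.14, SE 0.22, adjusted p = 7.2e-05).

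Type VI collagen forms beaded filaments around cells, and 3 of its 4 tested chains rose while 1 fell. Col6a1 had vehicle levels of 4.33, 4.46, 4.55 and 2.90 and DES levels of 5.78, 5.76, 5.73 and 5.84. The DES arrays lay above all vehicle arrays (log2 1.72, SE 0.25, adjusted p = 1.9e-06), and the change was 1.33 without the arrays that stood apart. Col6a2, its neighbour in the genome, rose by 1.01 (SE 0.19, adjusted p = 4.8e-05), from a range of 3.53 to 3.92 to a range of 4.69 to 4.92. Col6a4 had vehicle levels of 4.43, 4.58, 4.74 and 5.40 and DES levels of 5.83, 6.27, 6.12 and 6.26, again apart (log2 1.33, SE 0.26, adjusted p = 0.00011). Col6a6 fell from a range of -2.84 to -0.88 to a range of -4.28 to -3.65 (log2 -2.35, SE 0.36, adjusted p = 4.8e-06).

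Of 7 genes of fibril-associated collagens, which decorate fibres rather than form them, 3 rose and 2 fell. Col22a1, known from tissue junctions of muscle and tendon, had vehicle levels of -0.93, -1.48, -1.36 and -0.84 and DES levels of -3.58, -3.65, -3.15 and -3.42. The groups were well apart (log2 -2.30, SE 0.19, adjusted p = 1.2e-10). Col14a1, which binds type I fibres, had vehicle levels of 2.63, 3.17, 2.96 and 2.75 and DES levels of 3.86, 3.64, 3.97 and 3.56, without overlap (log2 0.88, SE 0.32, adjusted p = 0.024). That call was lost in 6 of 21 settings, among them the mean of its probes and leaving out vehicle replicate 1 or 4 or DES replicate 1 or 3 (adjusted p up to 0.099). Col9a3, a type IX chain, had vehicle levels of -2.91, -3.28, -3.44 and -3.47 and DES levels of -2.47, -2.56, -1.87 and -2.33. It rose by 0.97 (SE 0.28, adjusted p = 0.0056), whereas Col9a2 of the same molecule fell by 0.78 (adjusted p = 0.004) and Col9a1 had a log2 difference of -0.16 that did not pass. Both tested short-chain collagens fell, Col8a1 by 2.14 (SE 0.44, adjusted p = 0.0002) and Col8a2 by 0.83 (SE 0.18, adjusted p = 0.0004).

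**Figure D3:**
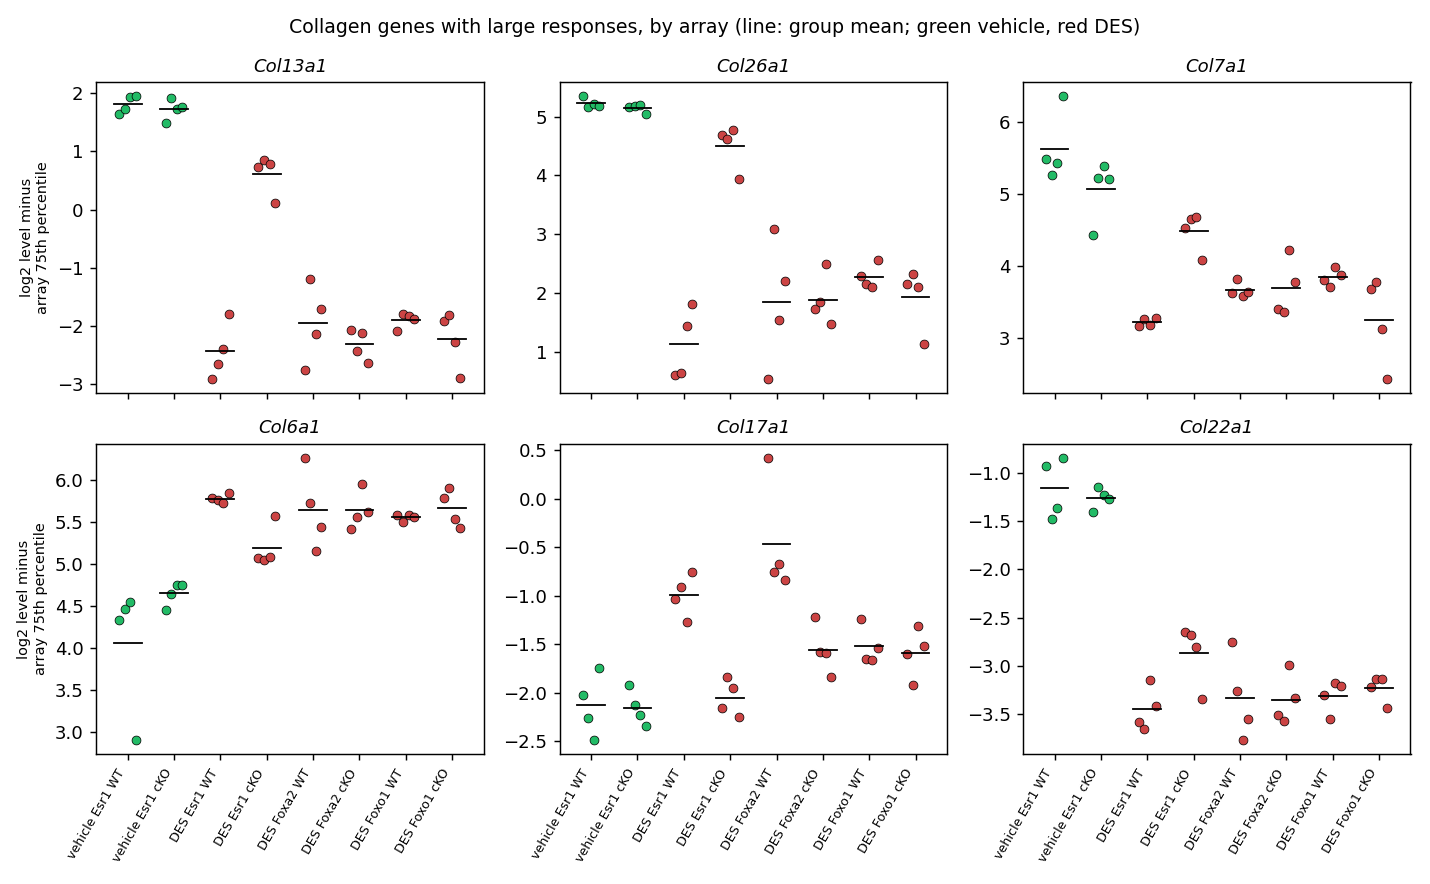
Levels of Col13a1, Col26a1, Col7a1, Col6a1, Col17a1 and Col22a1 (y axis, log2 intensity minus the array's 75th percentile) on every array of the 8 groups (x axis); lines show group means, green vehicle and red DES. Col13a1 lies between 1.63 and 1.94 in wild type with vehicle, between -2.90 and -1.80 with DES, and between 0.11 and 0.85 in the Esr1 cKO with DES.

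Genes that process collagen changed in both directions. Over all genes 21.5% rose and 30.3% fell in this comparison, with a median of -0.16. Of 30 tested genes for synthesis, folding, processing and cross-linking, 11 rose and 5 fell with DES in wild type, with a median change of 0.09. Pcolce2, which enhances removal of the C-propeptide, rose by 5.74 (adjusted p = 4.9e-12), Colgalt2, which glycosylates collagen in the endoplasmic reticulum, by 3.28 (adjusted p = 1.1e-12) and the cross-linking enzyme Loxl4 by 2.38 (adjusted p = 5.8e-06). The largest falls were those of Loxl3 (-1.11), Bmp1, the C-proteinase of fibrillar procollagens (-0.77), and Loxl1 (-0.59). Of 16 genes for other basement membrane proteins, 0 rose and 6 fell, with a median of -0.15, near that of all genes. Frem2, a basement membrane protein of the developing skin and kidney, fell by 3.43 (adjusted p = 6.4e-16), the laminin chain Lamc3 by 1.67 and Nid2, which links laminin and collagen IV, by 1.15. Of 9 receptors of collagen, Lair1 of leukocytes rose by 1.38, and Itga1, Mrc2 and Ddr2 fell by 1.80, 1.08 and 1.03.

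Markers of other cells moved with DES in the same wild-type uteri, in which 21.5% of all genes rose and 30.3% fell. Of 10 stroma markers 2 rose and 6 fell, with a median of -1.16, yet their summed level ranged from 7.80 to 8.31 with vehicle and from 8.30 to 8.33 with DES. All 7 smooth muscle markers that passed fell, of 9, and the summed level went from 8.41 to 9.11 down to 7.78 to 8.02. Of 8 epithelium markers 7 rose and 0 fell, with summed levels of 7.15 to 7.93 and then 8.27 to 8.53. Of 8 endothelium markers 1 rose and 5 fell, and the summed level went from 4.97 to 5.75 down to 4.25 to 4.57. All 4 tested leukocyte markers rose, with summed levels of 1.01 to 1.30 and then 3.33 to 3.92. Skeletal muscle markers had 2 of 6 that fell and 0 that rose, with summed levels of 2.49 to 2.71 and then 1.75 to 1.90. Adipocyte markers had 1 of 3 that fell, and mesothelium markers 1 of 5. Peripheral nerve markers had 1 of 2 that rose and 1 that fell. The 7 markers of cartilage and bone, tissues rich in types II, IX and XI, had 3 that rose and 1 that fell, all by at least 2-fold, and summed to -0.65 to -0.30 and then -0.81 to -0.24. The part of these shifts in the collagen results was not tested.

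In the Esr1 cKO, fewer collagen genes passed the test with DES. Col13a1, Col4a5, Col4a6 and Col22a1 fell, and Col6a2, Col9a1, Col9a3, Col14a1, Col16a1 and Col20a1 rose. These were 10 of 38, against 8.98% of all genes, of which 6.39% were higher and 2.58% lower. The arrays did not overlap for 21 of 38 collagen genes, against 30.8% of all genes. By class, 0 of 11 fibrillar genes passed in limma (2 had an unadjusted p under 0.05), 2 of 9 basement membrane genes fell, and 6 of 18 others rose and 2 fell. The DES responses of both genotypes share no arrays. Of the 10 genes, 8 passed in the same direction in wild type, which is 80% of the cKO list and 32% of the wild-type list, and over all genes the shares were 82.5% and 14.3%. Of the 25 genes called in wild type, 23 had the same sign in the cKO and 23 a smaller change, and of the 8876 genes called in wild type over the whole array, 6590 had the same sign and 8638 a smaller change. Choosing genes by their wild-type test favours a smaller change in the cKO. In the same cKO uteri, 3 of 4 leukocyte markers rose, with summed levels of 1.12 to 1.29 under vehicle and of 2.25 to 2.77 under DES. Of 8 epithelium markers 2 rose and 0 fell (7.09 to 7.17, then 7.47 to 7.90), and of 10 stroma markers 2 rose and 1 fell (7.76 to 8.03, then 7.98 to 8.24). Their part in the collagen values was not tested.

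Col4a6 had the smallest adjusted p of the basement membrane genes. With vehicle its levels in the cKO were 3.12, 2.97, 2.91 and 2.78, and with DES they were 2.02, 1.92, 2.06 and 1.42. The cKO fall of 1.09 (SE 0.16, adjusted p = 1.1e-05) left these uteri above all wild-type uteri given DES. With the mean of its 3 probes the fall was 0.66 and did not pass. Col4a5 went from 1.18, 0.84, 1.01 and 0.69 to -0.02, -0.23, -0.02 and 0.17, without overlap (log2 -0.96, SE 0.25, adjusted p = 0.013). Col13a1 went from 1.49, 1.92, 1.72 and 1.75 to 0.72, 0.85, 0.78 and 0.11 (log2 -1.10, SE 0.26, adjusted p = 0.0058).

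Among the other called genes, 3 with the largest changes are given by array. Col22a1 levels fell in the cKO from -1.40, -1.14, -1.23 and -1.27 to -2.65, -2.68, -2.80 and -3.35 (log2 -1.61, SE 0.19, adjusted p = 7.7e-07). Col14a1 went from 2.89, 3.17, 2.68 and 2.93 to 3.89, 3.92, 3.97 and 3.89 (log2 1.00, SE 0.32, adjusted p = 0.049). Col9a3 went from -3.95, -3.42, -3.39 and -3.27 to -2.57, -2.70, -2.51 and -2.60 (log2 0.92, SE 0.28, adjusted p = 0.04). The Col14a1 call was lost in 12 of 21 settings and the Col9a3 call in 10 of 21, in both cases when any 1 of the 8 compared arrays was left out (adjusted p up to 0.13 and 0.15). For each of these 3 genes the groups did not overlap, and the difference in response between genotypes, 0.69 for Col22a1 (adjusted p = 0.061), 0.13 for Col14a1 and -0.05 for Col9a3, did not pass. Col1a2, Col5a1, Col5a2 and Col6a1, with cKO changes of 0.62, 0.34, 0.43 and 0.54, did not pass over all arrays, and passed without the arrays that stood apart (adjusted p = 0.0064, 0.012, 0.0063 and 0.004). Neither of those arrays is from a compared group, so the changes stayed the same. Only the estimated spread and the adjustment differed. Without those arrays 17 of 38 collagen genes passed in the cKO, against 20.7% of all genes.

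The difference between the DES responses of cKO and wild type was tested directly. It passed for 13 of 38 collagen genes, against 27.3% of all genes, and for 17 without the arrays that stood apart, against 42.4% of all genes. The response was shifted up in the cKO for 10 genes: Col26a1 (3.46), Col13a1 (3.14), Col8a1 (2.51), Col4a6 (2.10), Col7a1 (1.83), Col6a6 (1.54), Col18a1 (1.24), Col4a5 (1.08), Col9a1 (0.97) and Col9a2 (0.92), in log2 units. It was shifted down for Col4a3 (-1.87), Col6a1 (-1.17) and Col17a1 (-1.03). For Col26a1 the cKO levels were 5.16, 5.17, 5.19 and 5.05 with vehicle and 4.69, 4.61, 4.77 and 3.95 with DES, a log2 difference of -0.64 against -4.09 in wild type. For Col17a1 they were -1.92, -2.13, -2.23 and -2.34 with vehicle and -2.16, -1.84, -1.95 and -2.25 with DES, a difference of 0.10 against 1.14 in wild type. The Col9a1 difference was lost in 18 of 29 settings, and its probe was above the floor on 2 of 4 arrays in each vehicle group. The Col4a3 difference was -1.08 without the arrays that stood apart (adjusted p = 0.0006). Of 11 fibrillar genes 0 passed in limma, with differences from -0.39 to 0.59, and without the arrays that stood apart Col5a1 passed (-0.45, adjusted p = 0.012).

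Without DES, no collagen gene passed between the Esr1 genotypes, and neither did Esr1 itself, whose groups overlapped. Esr1 levels fell by 2.28 with DES in the cKO (adjusted p = 0.00022) and by 1.06 in wild type (adjusted p = 0.029), so its mean level in the vehicle cKO, 2.55, lay above that in DES wild type, 2.23. Of 38 genes 0 passed in limma, with 5 at an unadjusted p under 0.05, against 7.48% of all genes passing, with 4.79% of all genes lower and 6.67% changed at least 2-fold. Log2 differences, cKO minus wild type, ran from -0.57 for Col7a1 to 0.98 for Col4a3. Without the arrays that stood apart Col4a4 passed, with a difference of 0.38 (adjusted p = 0.028). The 95% intervals were -0.55 to 0.41 for Col1a1, -0.74 to 0.49 for Col1a2 and -0.77 to 0.13 for Col3a1, and changes within those bounds are not excluded.

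Under DES, cKO and wild-type uteri of the Esr1 line differed in 14 of 38 collagen genes, against 30.5% of all genes, 16.6% higher and 13.9% lower, and the groups did not overlap for 19 collagen genes, against 47.0% of all genes. Without the arrays that stood apart, neither of which is from these groups, 21 passed, 14 higher and 7 lower, against 47.9% of all genes. Higher in the cKO were Col4a5, Col4a6, Col7a1, Col18a1, Col6a6, Col8a1, Col9a2, Col13a1, Col22a1 and Col26a1. Lower were Col5a1, Col15a1, Col6a4 and Col17a1. Col26a1 was 3.37 higher (SE 0.36, adjusted p = 2.5e-08) and Col13a1 3.05 higher (SE 0.26, adjusted p = 6.6e-10). Col4a6 was 2.18 higher (SE 0.16, adjusted p = 1.6e-11). These comparisons share the DES wild-type arrays with the DES response of wild type. Col7a1 levels in the cKO were 4.53, 4.65, 4.68 and 4.09, all above the wild-type values (log2 1.26, SE 0.25, adjusted p = 0.00031).

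The genes lower in the cKO under DES included a fibrillar chain. Col5a1 levels in the cKO were 5.23, 5.40, 5.43 and 5.33, below all wild-type values (log2 -0.50, SE 0.14, adjusted p = 0.0081). Col6a4 levels were 5.24, 5.12, 4.83 and 4.74, also below them all (log2 -1.14, SE 0.26, adjusted p = 0.0012). Col15a1 levels were -0.50, -0.49, -0.71 and -0.65 (log2 -0.41, SE 0.13, adjusted p = 0.016), and Col17a1 was lower by 1.06 (SE 0.22, adjusted p = 0.00034). Col6a1 levels of 5.07, 5.04, 5.08 and 5.56 lay below those of wild type without passing (log2 -0.59, adjusted p = 0.076). Without the arrays that stood apart, neither of which is from these groups, the adjusted p of Col6a1 was 0.0006. Differences of the main fibrillar chains were -0.07 for Col1a1, -0.11 for Col1a2 and 0.16 for Col3a1.

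Processing genes, basement membrane partners and receptors followed in the same comparison, in which 16.6% of all genes were higher and 13.9% lower. Of the 30 processing genes 5 were higher and 7 lower in the cKO, with Loxl4 lower by 3.14 (adjusted p = 1.8e-07), Colgalt2 by 2.46 and the lysyl hydroxylase gene Plod2 by 1.37. Tll1, a relative of Bmp1, was higher by 1.45. Of the 16 partners 3 were higher and 0 lower, namely Frem2 (2.74), Nid2 (1.17) and the laminin chain Lama4 (0.67). Of the 9 receptors Itga1, Mrc2 and Ddr2 were higher, by 1.29, 0.66 and 0.64, and Itga11 was lower by 0.96. Of the 10 stroma markers 5 were higher and 1 lower in the cKO. The summed stroma level was nonetheless lower, at 7.98 to 8.24 in the cKO against 8.30 to 8.33 in wild type. Of the 9 smooth muscle markers 5 were higher (summed 8.16 to 8.32 against 7.78 to 8.02). Of the 8 epithelium markers 5 were lower (7.47 to 7.90 against 8.27 to 8.53), and of the 4 leukocyte markers 2 (2.25 to 2.77 against 3.33 to 3.92). Their part in the collagen differences was not tested.

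In the Foxa2 line under DES, Col17a1 was the only collagen gene that passed, 1 of 38, against 2.21% of all genes, of which 1.11% were higher, 1.10% lower and 1.28% changed at least 2-fold. Its levels were 0.42, -0.76, -0.68 and -0.84 in wild type and -1.22, -1.58, -1.59 and -1.84 in the cKO. The cKO arrays lay below all wild-type arrays (log2 -1.09, SE 0.22, adjusted p = 0.0039), which fixes the sign within any subset of replicates. The size was -1.23 within replicates 1 and 2, which include the wild-type replicate 1 that stood apart. It was -0.96 within replicates 3 and 4. The gene's second probe differed by 0.31 the other way, and the mean of both probes did not pass (-0.39, adjusted p = 0.22). The call was also lost when only the Foxa2 groups entered the fit (adjusted p = 0.61), and without the arrays that stood apart the difference was -0.80 (adjusted p = 0.0036). Col15a1 was lower in the cKO, at 0.02, 0.07, 0.18 and -0.26 against 0.47, 0.44, 0.41 and 0.47, without overlap and without passing (log2 -0.44, adjusted p = 0.069). The receptor genes Itga11 and Itga1 were higher in the cKO by 1.63 (adjusted p = 0.0003) and 0.87 (adjusted p = 0.023), and of the 30 processing genes and 16 partners 0 passed in limma, with 5 and 1 at an unadjusted p under 0.05.

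In the Foxo1 line under DES, 0 of 38 collagen genes passed in limma, with 4 at an unadjusted p under 0.05, against 0.222% of all genes passing and 0.0408% passing as lower. Groups did not overlap for 4 collagen genes, against 8.09% of all genes. The largest difference was a lower level of Col8a1 in the cKO (log2 -1.22), which did not pass. It ran from 1.23 to 1.71 in wild type and from -0.90 to 1.13 in the cKO, without overlap. Col9a3 had levels of -2.54, -2.52, -2.62 and -2.39 in wild type and of -1.64, -1.03, -1.06 and -1.53 in the cKO. The cKO arrays lay above all wild-type arrays, by 1.20 on the log2 scale (SE 0.28, adjusted p = 0.084). That fixes the sign within any subset of replicates, and the size was 1.19 within replicates 1 and 2 and 1.22 within replicates 3 and 4. Without the arrays that stood apart, neither of which is from this line, the adjusted p of Col9a3 was 0.009. Col15a1 had levels of -0.72, -0.62, -0.28 and -0.27 in wild type and of 0.00, 0.03, -0.17 and -0.09 in the cKO, a log2 difference of 0.42 (adjusted p = 0.43). Of the processing, partner and receptor genes 0 passed, with 2, 1 and 0 at an unadjusted p under 0.05.

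**Figure D4:**
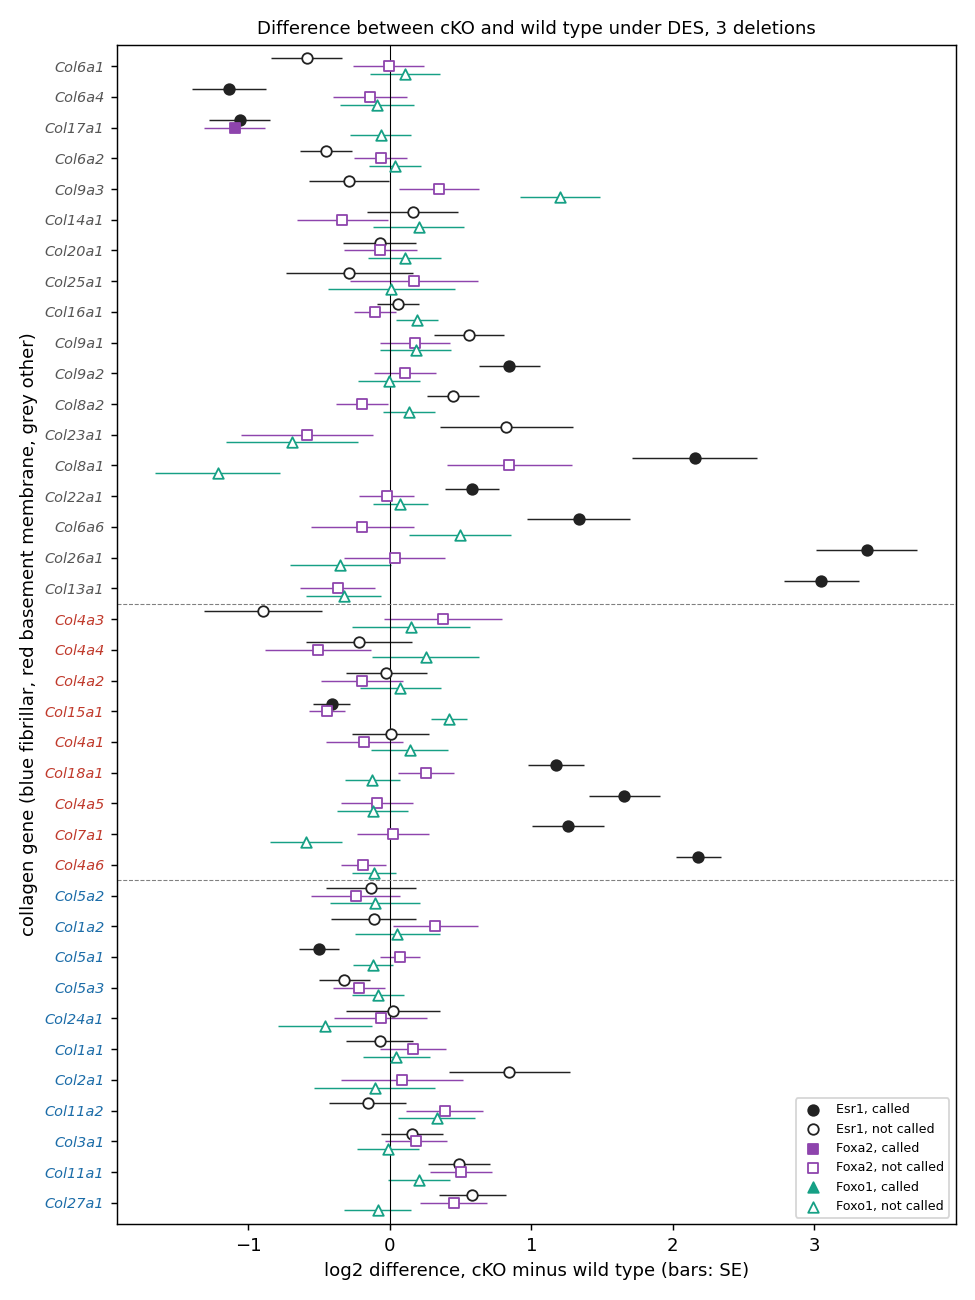
Log2 difference between cKO and wild type under DES (x axis, bars show the SE) for the 38 tested collagen genes (y axis) in the Esr1, Foxa2 and Foxo1 lines, 4 arrays per group; filled symbols passed an adjusted p under 0.05. The Esr1 values run from -1.14 for Col6a4 to 3.37 for Col26a1, and Col17a1 at -1.09 is the filled Foxa2 symbol.

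The deletion effects of the lines were compared directly. The Foxa2 effect differed from the Esr1 effect in 8 of 38 collagen genes, with 1 more positive and 7 more negative, against 18.4% of all genes, 9.25% more positive and 9.19% more negative. Without the arrays that stood apart it differed in 16, with 5 more positive and 11 more negative, against 33.8% of all genes. The Foxo1 effect differed from the Esr1 effect in 11, with 4 more positive and 7 more negative, against 19.6% of all genes, 10.1% more positive and 9.48% more negative, and in 17 without the arrays that stood apart, against 37.4%. Both sets of differences share the Esr1 arrays, and neither array that stood apart enters the Foxo1 set. Col13a1 differed by -3.42 and -3.37, Col26a1 by -3.33 and -3.72, Col4a6 by -2.37 and -2.29, and Col4a5 by -1.75 and -1.78, in the order Foxa2 and Foxo1. For Col17a1 the Foxa2 effect was -1.09 and the Esr1 effect -1.06, and their difference of -0.04 (SE 0.30) did not pass. The Foxo1 effect differed from the Esr1 effect by 0.99 (SE 0.30, adjusted p = 0.02). The limits given above for the Foxa2 call of Col17a1 apply here too. Its mean level in DES wild type also differed between lines, at -0.99 in the Esr1, -0.46 in the Foxa2 and -1.52 in the Foxo1 line. The Foxo1 effect on Col9a3 exceeded the Esr1 effect by 1.49 (SE 0.40, adjusted p = 0.0083).

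Levels of Col4a6 in the other lines under DES stood near those of Esr1 wild type. Foxa2 wild type had 0.31 at the highest and -0.23 at the lowest, and Foxa2 cKO ran from -0.57 to 0.07. Foxo1 wild type ran from 0.06 to 0.23 and Foxo1 cKO from -0.20 to 0.18. None of these 16 arrays reached the lowest Esr1 cKO array given DES, at 1.42. Col13a1 likewise ran from -2.89 to -1.19 over these 16 arrays, below the lowest Esr1 cKO value of 0.11. Col9a1 separated the lines instead, at -6.04 to -5.23 in the 8 Esr1 arrays given DES and at -4.56 to -2.84 in the 16 arrays of the other lines. The Esr1 levels of Col9a1 lay near the floor. Its probe exceeded the floor on all 4 arrays of each Esr1 group given DES and on 2 of 4 in each vehicle group. Line and any difference in when arrays were run cannot be told apart.

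Within the Foxa2 and Foxo1 lines, replicates 1 and 2 separated from replicates 3 and 4 for the main fibrillar genes, whatever the genotype. Col2a1, the main chain of cartilage, ran from 1.43 to 2.04 in replicates 1 and 2 and from 3.19 to 3.61 in replicates 3 and 4 of the Foxa2 line, and from 1.56 to 1.73 and from 2.95 to 3.24 in the Foxo1 line. Col1a1 ran from 6.27 to 7.44 and from 7.61 to 7.83 in the Foxa2 line, and from 7.11 to 7.29 and from 7.71 to 7.83 in the Foxo1 line. Col1a2 and Col3a1 separated in the same direction in both lines, by 0.92 and 0.64 in the Foxa2 line and by 0.47 and 0.50 in the Foxo1 line. In all, 5 of 38 collagen genes separated completely in each line, against 2.68% of all genes in the Foxa2 line and 13.9% in the Foxo1 line. The Foxo1 count was near the share of all genes, so the split there was not particular to collagens. The Foxa2 shares include wild-type replicate 1, which stood apart, and its part in the lower share of all genes was not tested. The labels give no reason for this split. The highest intensity on an array ran from 298910 to 345125 in replicates 1 and 2 of the Foxo1 line. It ran from 473475 to 527196 in replicates 3 and 4. In the Foxa2 line, replicate 2 had 347377 in wild type and 331947 in the cKO, and replicates 3 and 4 ran from 522070 to 608761. Replicate 1 had 922772 in wild type and 515050 in the cKO. The part of these maxima in the collagen levels was not tested. Within replicates 3 and 4, cKO minus wild type was 0.09 and -0.05 for Col1a1, in the Foxa2 and Foxo1 lines.

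**Figure D5:**
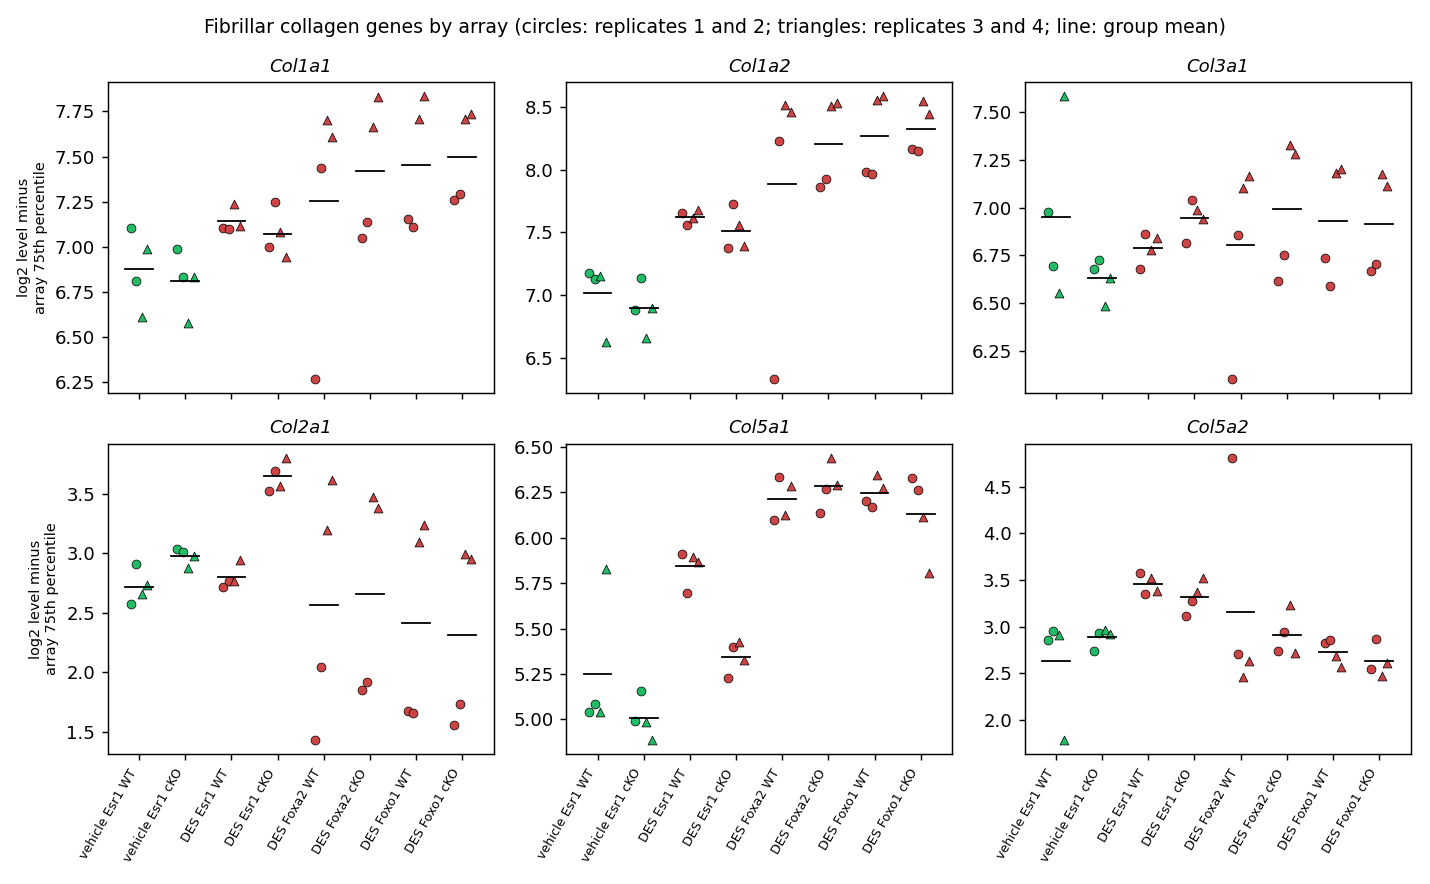
Levels of 6 fibrillar collagen genes (y axis, log2 intensity minus the array's 75th percentile) on every array of the 8 groups (x axis); circles are replicates 1 and 2, triangles replicates 3 and 4, lines group means. In the Foxa2 and Foxo1 lines the triangles of Col2a1 lie between 2.95 and 3.61 and the circles between 1.43 and 2.04.

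Col6a1 and Col4a1 had small mean differences between cKO and wild type in these lines. Col6a1 had levels of 6.26, 5.72, 5.16 and 5.44 in Foxa2 wild type and 5.42, 5.56, 5.95 and 5.62 in Foxa2 cKO, overlapping (log2 -0.01, SE 0.25). In the Foxo1 line it had levels of 5.58, 5.49, 5.58 and 5.56 in wild type and 5.78, 5.91, 5.53 and 5.42 in the cKO (log2 0.11, SE 0.25). Col4a1 differences were -0.18 (95% interval -0.74 to 0.38) in the Foxa2 line and 0.14 (95% interval -0.42 to 0.70) in the Foxo1 line. The sign differed between replicates 1 and 2 and replicates 3 and 4. In the Foxa2 line Col6a1 differed by -0.50 and 0.49 and Col4a1 by -0.93 and 0.57, in that order. The first of each includes wild-type replicate 1, which stood apart. In the Foxo1 line Col6a1 differed by 0.31 and -0.10 and Col4a1 by 0.43 and -0.15.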

How the data were processed

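RNA of 32 uteri was measured on single-colour Agilent arrays. The deposited table holds linear intensities for 45018 probes, from 1.871154 to 922771.8. The submitters' processing notes name Agilent Feature Extraction 12, and no source used here gives the authors' background and normalization steps. Of the probes, 33653 had 1 gene symbol in the platform annotation, 56 had several and 11309 had none, and 33517 of the symbols were matched by gene ID. Intensities were put on the log2 scale and centred on each array's 75th percentile. A probe was kept if it exceeded its array's 30th percentile on at least 4 arrays, and the kept probe of highest mean stood for its gene.

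A mean per group was fitted over all 32 arrays with limma 3.58.1 in R 4.3.3 (lmFit, eBayes), and p-values were adjusted over all 17145 genes by the Benjamini-Hochberg method, with calls at an adjusted p under 0.05. The fit was tested on simulated data. The collagen genes, gene lists and cell markers were chosen with earlier results of these data known. Genes named with values on every array were the called members with the largest change per comparison, up to 2 per class and direction, and Col1a1, Col1a2, Col3a1, Col4a1, Col4a2 and Col6a1 always; of each gene list up to 3 called members per direction were named.

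Same-numbered arrays of the Foxo1 line deviated together from their group means (correlations of 0.290, 0.381, 0.359 and 0.330). The labels do not state a pairing, and the main fit used none, so its p-values are unpaired. A block by replicate number was run as an alternative. In the other comparisons at least 1 correlation was below 0.1. Alternatives covered normalization, scaling, filter, choice of probe, arrays in the fit, array weights, the replicate block, threshold and leaving out arrays. The labels call the arrays biological replicates, and their number limits the precision.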

Additional observations from a re-analysis of the deposited data

Results flagged for a closer look

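A single array lay far from the other 3 of its group in 20 of 176 groups examined, 11.4%, where chance gives about 5%. Replicate 4 of the vehicle Esr1 wild-type group accounted for 7 of them, with levels of 6.63 for Col1a2, 1.56 for Col4a2, -7.53 for Col4a3, -0.75 for Col4a5, 5.83 for Col5a1, 1.78 for Col5a2 and 2.90 for Col6a1. Replicate 1 of the DES Foxa2 wild-type group accounted for another 7, with levels of 6.11 for Col14a1, 0.42 for Col17a1, 6.33 for Col1a2, 5.49 for Col4a1, 4.70 for Col4a2, 4.00 for Col4a4 and 4.81 for Col5a2. In replicate 4 of the DES Esr1 cKO group, Col13a1 was at 0.11 (others 0.72 to 0.85) and Col6a1 at 5.56 (others 5.04 to 5.08). In replicate 1 of the vehicle Esr1 cKO group, Col4a2 was at 3.05 and Col5a2 at 2.74. Col1a1 was at 7.24 in replicate 3 of the DES Esr1 wild-type group, and Col9a3 at -2.35 in replicate 4 of the DES Foxa2 cKO group.

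The DES response differed between the Esr1 genotypes, cKO minus wild type on the log2 scale, by 3.46 for Col26a1, 3.14 for Col13a1, 2.51 for Col8a1, 2.10 for Col4a6, 1.83 for Col7a1, 1.54 for Col6a6, 1.24 for Col18a1, 1.08 for Col4a5, 0.97 for Col9a1, 0.92 for Col9a2, -1.03 for Col17a1, -1.17 for Col6a1 and -1.87 for Col4a3. The Foxa2 deletion effect minus the Esr1 deletion effect was -3.42 for Col13a1, -3.33 for Col26a1, -2.37 for Col4a6, -1.75 for Col4a5, -1.53 for Col6a6, -1.24 for Col7a1, -0.92 for Col18a1 and 0.57 for Col5a1. The Foxo1 deletion effect minus the Esr1 deletion effect was -3.72 for Col26a1, -3.37 for Col13a1 and for Col8a1, -2.29 for Col4a6, -1.85 for Col7a1, -1.78 for Col4a5, -1.30 for Col18a1, 0.83 for Col15a1, 0.99 for Col17a1, 1.05 for Col6a4 and 1.49 for Col9a3. Each of these differences passed limma's test over all arrays, and both deletion comparisons share the Esr1 arrays. The calls of Col5a1 and Col6a6 (Foxa2 minus Esr1) were lost in 21 and 15 of 32 settings, that of Col6a4 (Foxo1 minus Esr1) in 17 of 32 and that of Col9a1 (DES response) in 18 of 29, mostly when single arrays were left out.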

How the results depend on the processing

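Of 134 results on single collagen genes, 90 stayed on the same side of the threshold in every setting run, and 34 of those 90, none of them called, had another sign in at least 1 setting. Of the called results 0 changed sign. The count of collagen genes called with DES in wild type, 25, stayed within 22 to 25 when arrays were left out in turn, and was 26 with the replicate block. The count for DES in the Esr1 cKO, 10, was the least stable: 20 with only the compared groups in the fit, 22 with array weights, 17 with the replicate block in that smaller fit, 17 without the arrays that stood apart, 3 at an adjusted p under 0.01, and 4 to 7 when arrays were left out in turn, lowest without vehicle cKO replicate 1. The difference in response, 13, was 6 at the stricter threshold, 17 without the arrays that stood apart and 10 to 14 with arrays left out in turn. Esr1 cKO against wild type under DES, 14, gave 22 with only the compared groups and 22 with array weights, 21 without the arrays that stood apart, and 12 to 16 with arrays left out in turn. Under vehicle, 0 became 1 with array weights and 1 without the arrays that stood apart. The Foxa2 count, 1, was 0 with the mean of a gene's probes, 0 with only the compared groups, 0 with the replicate block in that fit and 6 with array weights. The Foxo1 count, 0, was 1 with quantile normalization, 1 with only the compared groups, 3 with array weights, 1 without the arrays that stood apart and 1 in replicates 3 and 4, and stayed at 0 with the replicate block. The difference between Foxa2 and Esr1 effects, 8, was 20 with array weights, 16 without the arrays that stood apart, 4 at the stricter threshold and 5 to 10 with arrays left out, lowest without DES Esr1 cKO replicate 1. The difference between Foxo1 and Esr1 effects, 11, was 17 with only the compared groups, 22 with array weights, 17 with the replicate block in that fit, 17 without the arrays that stood apart and 10 to 11 with arrays left out. Fits with fewer groups or arrays estimate the spread from fewer arrays. The counts moved both up and down in such fits, and the cause was not tested in any setting. Centring on the median moved the median DES change of all genes in wild type from -0.16 to 0.09.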
